A study of Mus musculus with 4 samples.

Results

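Complement transcripts were followed in nuclei of the mouse brain through 5 genes: C1qa, C1qb and C1qc, which encode the chains of C1q, and C3 and C4b, which encode the next proteins of the cascade. They were chosen by gene symbol from the 32285 genes of each library, and all 5 were found. Single-nucleus RNA sequencing had been done on whole brain without cerebellum of wild-type C57BL/6 mice aged 10 weeks, with 1 library in each of 4 groups. The brain was taken either after cervical dislocation (post-mortem) or by craniotomy under isoflurane anaesthesia (the submitters' "in vivo" samples), and dry ice was used to freeze the tissue of all groups, for 10 min. Nuclei were extracted from at most 50 mg of it and were either left unfixed or held in 80% methanol at -20 °C for 30 min before droplet capture, so that the post-mortem unfixed, post-mortem fixed, anaesthetised unfixed and anaesthetised fixed libraries result. The series asked how harvest and fixation bear on nuclear transcriptomes. No group was replicated, so that there is no test between groups: each ratio compares 2 libraries, and harvest cannot be told apart from the animal or the piece of brain. The labels do not say whether the fixed and unfixed nuclei of a harvest came from the same brain. Fixation therefore cannot be told apart from animal, piece of brain or library either.

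C1q is the recognition part of the classical complement pathway. It binds immune complexes, dying cells and some synapses and carries the proteases C1r and C1s, which cleave C4 and C2 to build the enzyme that cleaves C3. Fragments of C3 stay on the target and are read by receptors such as the integrin of Itgam and Itgb2 on phagocytes. Microglia, the resident macrophages of the brain, are known as its main source of C1q, and complement is known for its part in the removal of synapses.

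The 3 C1q genes lie side by side on the minus strand of chromosome 4 (GRCm38, mm10), within 18675 bp. C1qb (ENSMUSG00000036905) runs from 136880129 to 136886187, C1qc (ENSMUSG00000036896) from 136889804 to 136893065 and C1qa (ENSMUSG00000036887) from 136895917 to 136898803, with gaps of 3616 and 2851 bp between them. Each has at most 3 exons per transcript. C4b (ENSMUSG00000073418, 34728380 to 34743882) and C3 (ENSMUSG00000024164, 57203970 to 57228136) lie on the minus strand of chromosome 17, each with up to 41 exons. In the GENCODE annotation no gene overlaps a member on the opposite strand, which matters because the strand setting of the counting is not given in the sources used here. The microRNA gene Mir6978 lies inside C3 on the same strand.

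Because the C1q genes had nearly equal levels in every library, the promoter windows available for them are shown, beside that of C3, which had no UMI in microglia. RefSeq windows (GRCm38.p6) were matched for 3 of the 5 members and run from 250 bases before to 50 bases after the RefSeq gene start. For C1qb and C1qc this start is not the GENCODE gene end given above. Capitals mark the hexamer GAGGAA or its reverse complement, a core that the myeloid factor PU.1 is known to bind. The windows are chr4:136886151-136886450 for C1qb, chr4:136892865-136893164 for C1qc and chr17:57228087-57228386 for C3, all on the minus strand.
C1qb: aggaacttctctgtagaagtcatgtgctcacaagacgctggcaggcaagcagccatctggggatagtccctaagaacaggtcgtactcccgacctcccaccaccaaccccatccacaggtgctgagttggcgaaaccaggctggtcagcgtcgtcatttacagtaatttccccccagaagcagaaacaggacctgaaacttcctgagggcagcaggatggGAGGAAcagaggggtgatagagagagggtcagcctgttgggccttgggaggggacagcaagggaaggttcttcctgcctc
C1qc: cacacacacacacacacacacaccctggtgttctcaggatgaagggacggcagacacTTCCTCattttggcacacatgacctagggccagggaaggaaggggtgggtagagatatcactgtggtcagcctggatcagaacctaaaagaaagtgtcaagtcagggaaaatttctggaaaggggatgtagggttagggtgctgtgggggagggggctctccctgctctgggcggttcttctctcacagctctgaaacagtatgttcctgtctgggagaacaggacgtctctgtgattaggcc
C3: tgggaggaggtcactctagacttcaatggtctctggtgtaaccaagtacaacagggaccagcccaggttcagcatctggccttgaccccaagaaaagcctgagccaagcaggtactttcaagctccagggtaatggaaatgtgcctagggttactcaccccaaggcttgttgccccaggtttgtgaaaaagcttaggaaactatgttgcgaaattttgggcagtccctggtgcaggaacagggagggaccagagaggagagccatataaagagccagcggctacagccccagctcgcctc
The C1qb window holds 1 match, starting at -30 from the RefSeq start, and the C1qc window 1 on the other strand, starting at -193. From the GENCODE start these distances would differ. The C3 window holds 0. Over all 32851 windows of the table, 28.3% hold a match on either strand, so a match is a description of these windows and not a binding site.

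Nuclei were sorted into classes by 12 markers for each of 11 classes, none of them a complement member. A nucleus was called microglial when it held at least 3 different microglial markers (Csf1r, Cx3cr1, P2ry12, Tmem119 and others) and 2 more than of any other class. Nuclei with at least 3 markers of perivascular macrophages, the other macrophages of the brain, went to that class instead where either set led the remaining classes by 2. This gave 458 microglial nuclei of 12483 kept (3.67%) in the post-mortem unfixed library, 480 of 9818 (4.89%) in the post-mortem fixed one, 547 of 15134 (3.61%) in the anaesthetised unfixed one and 319 of 6833 (4.67%) in the anaesthetised fixed one. All 12 markers were present in each library. The microglia held a median of 760 to 1053 UMIs (unique molecular identifiers, each the tag of 1 captured transcript), against 3024.5 to 7829 over all kept nuclei, and 345499 to 467328 UMIs in all per library. Markers of perivascular macrophages summed to 165 to 240 counts per 1000000 UMIs of the class (CPM) in microglia, with Ms4a7, Pf4, Lyve1, Cbr2, Cd209f, Clec10a and Mgl2 at 0 in all 4 libraries. The gate itself keeps these markers low, so the values are no separate check of purity. The 4 libraries shared 61 to 210 barcodes pairwise, at most 1.45% of the smaller library.

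The name "complement genes of microglia" holds for C1qa, C1qb and C1qc and not for the other members. C3 had 0 UMIs in the microglia of all 4 libraries, and C4b had 3, 0, 2 and 0, in the order post-mortem unfixed, post-mortem fixed, anaesthetised unfixed and anaesthetised fixed, which is kept below. C3 and C4b are therefore described by the classes that held them.

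C1q was among the most abundant messages of fixed microglia and about 4 times lower in unfixed ones. The C1q sum (C1qa, C1qb and C1qc together) was 1574 CPM (95% Poisson interval 1458 to 1696, from 686 UMIs) in the post-mortem unfixed library and 5955 CPM (5736 to 6181, 2783 UMIs) in its fixed partner. In the anaesthetised pair it was 1505 CPM (1391 to 1626, 646 UMIs) unfixed and 5971 CPM (5716 to 6234, 2063 UMIs) fixed. Both fixed libraries stood above both unfixed ones with no overlap of intervals, while the harvests lay level within each treatment. The intervals throughout cover counting error only, since PCR, animals and libraries add spread that 1 library per group cannot show.

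C1qa, the gene of the A chain, had 544, 2059, 459 and 1997 CPM in microglia. C1qb, that of the B chain, had 477, 1885, 478 and 1861 CPM. C1qc, that of the C chain, had 553, 2011, 568 and 2113 CPM. For each gene the fixed libraries are high and the unfixed low, and the 2 values of a treatment differ by less than the gap between treatments. Ranked by UMIs among all genes, the 3 genes held places 172 to 250 in unfixed microglia and places 22 to 34 in fixed microglia.

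**Figure D1:**
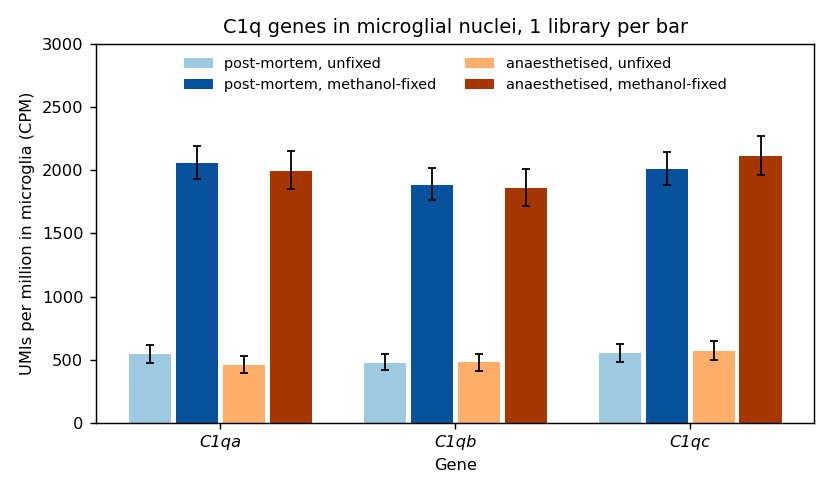
Level of C1qa, C1qb and C1qc in microglial nuclei (vertical axis, CPM of the class, from 0), 1 bar for each library, with exact 95% Poisson intervals for counting error. All 6 bars of the fixed libraries lie between 1861 and 2113 CPM and all 6 of the unfixed ones between 459 and 568 CPM.

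As log2 ratios of methanol-fixed over unfixed, with exact conditional 95% intervals, C1qa stood at 1.92 (1.71 to 2.13) between the post-mortem libraries and at 2.12 (1.89 to 2.36) between the anaesthetised ones. C1qb stood at 1.98 (1.76 to 2.21) and 1.96 (1.73 to 2.20), and C1qc at 1.86 (1.66 to 2.07) and 1.89 (1.68 to 2.11). The sum gave 1.92 (1.80 to 2.04) and 1.99 (1.86 to 2.12), which is 3.78-fold and 3.97-fold. All 3 were at least 2-fold higher in both pairs, where 117 of 6324 genes tested in microglia, or 1.85%, were so. The members had been proposed with such ratios known, so this count is a description. Another 7.31% of genes were at least 2-fold lower in both pairs, none of them a member. By size of ratio the C1q genes held places 14 to 19 (post-mortem) and 22 to 48 (anaesthetised) among the 6324 genes, whose median ratio was -0.00 and 0.06.

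C1q differed little between harvests. The log2 ratio of anaesthetised over post-mortem for the sum was -0.06 (-0.22 to 0.09) without fixation and 0.00 (-0.08 to 0.09) with it. The widest single value was that of C1qa in the unfixed pair, at -0.24 (-0.52 to 0.03), an interval that includes no difference. Per UMI of Inpp5d, Apbb1ip and Dock8, microglial genes used as another scale, the methanol pair gave -0.17 (-0.25 to -0.08). No C1q gene was 2-fold apart in both harvest pairs, where 0.0791% of genes were higher and 0.285% lower. Among nuclei of at least 1000 UMIs the unfixed pair gave 0.40 (0.11 to 0.68), from 170 post-mortem and 68 anaesthetised nuclei. The value near 0 was thus not seen in the deeper nuclei of that pair. Of the 68, however, 1 nucleus held 22 C1q UMIs, and its part in this value was not tested.

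The 3 chains kept nearly the same proportions in every library. Of the C1q UMIs in microglia, C1qa made up 34.5%, 34.6%, 30.5% and 33.4%, C1qb 30.3%, 31.7%, 31.7% and 31.2%, and C1qc 35.1%, 33.8%, 37.8% and 35.4%. The intervals of each chain overlap between all libraries (for C1qa in the anaesthetised unfixed library, the lowest, 27 to 34.2%). Since UMIs tag 1 end of a transcript, these shares were not divided by transcript length. C1q protein is built from equal numbers of the 3 chains.

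Within microglia the difference ran through most nuclei. In the unfixed libraries 26.2% and 38.9% of microglial nuclei (post-mortem and anaesthetised) held no C1q UMI and the median was 1. In the fixed libraries 2.92% and 1.57% held none, and the medians were 5 and 6. Nuclei with 10 or more C1q UMIs numbered 0 and 1 in the unfixed libraries and 68 of 480 and 56 of 319 in the fixed ones. That 1 unfixed nucleus, in the anaesthetised library, held 22 of the library's 646 microglial C1q UMIs, while the next highest held 8. Fixed nuclei with all 3 genes made up 54.8% and 63.3%, against 4.8% and 3.66% of unfixed ones.

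**Figure D2:**
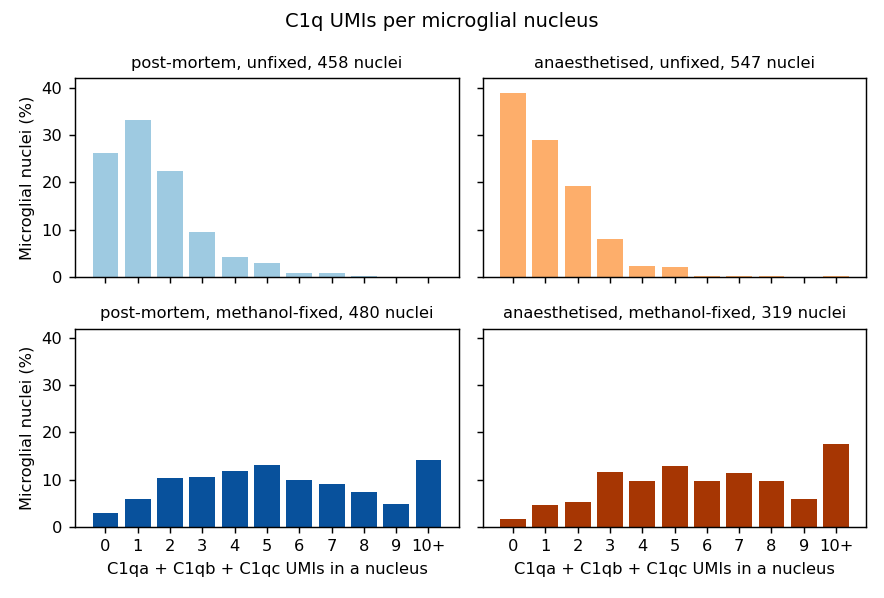
Share of microglial nuclei (vertical axis, %) by the number of C1qa, C1qb and C1qc UMIs they held (horizontal axis, 10 and more pooled), 1 panel for each library. Unfixed nuclei pile up at 0 to 2 UMIs, with medians of 1, and fixed nuclei spread around medians of 5 and 6.

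Depth was then made equal by thinning each nucleus to 1000 UMIs and leaving out shallower ones (288, 277, 479 and 128 microglial nuclei). The share of microglia with any C1q UMI was 76.5% (69.4 to 82.6) unfixed and 99% (96.5 to 99.9) fixed after post-mortem harvest, against 69.1% (56.7 to 79.8) unfixed and 98.4% (95.5 to 99.7) fixed after anaesthesia. Unthinned the shares were 73.8%, 97.1%, 61.1% and 98.4%. Neurons, which serve here as a class that should lack C1q, gave 1.83%, 0.555%, 1.5% and 0.26% at the same depth, and 5.99%, 3.11%, 4.44% and 3.4% unthinned at medians of 4681, 7571.5, 3934 and 9873 UMIs. The microglial share exceeded the neuronal one in each library. Over 4 bins of nuclear depth the post-mortem libraries ran from 1135 to 1717 CPM unfixed and from 5620 to 6973 CPM fixed. The anaesthetised libraries ran from 1094 to 2021 CPM unfixed and from 5056 to 7668 CPM fixed. In the anaesthetised pair the level moved with depth, from 1241 (1053 to 1454) at 500 to 700 UMIs to 2021 (1705 to 2378) at 1000 to 1500 UMIs unfixed, and from 7668 (6320 to 9219) in the shallowest bin to 5056 (4380 to 5808) in the deepest fixed. The unfixed bin of 2021 CPM had 145 C1q UMIs, 22 of them in 1 nucleus. No unfixed bin reached any fixed bin, although the bins of 1500 UMIs and more held 16, 15, 4 and 23 nuclei.

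Over all kept nuclei the contrast was smaller. The C1q sum was 29.7, 51.5, 28.7 and 43.7 CPM, with fixation ratios of 0.80 (0.71 to 0.89) and 0.61 (0.51 to 0.70) and harvest ratios of -0.04 (-0.15 to 0.06) and -0.24 (-0.31 to -0.16). Both fixed libraries were again the high ones, but 0 of 3 C1q genes reached 2-fold in both pairs, where 0.276% of 9784 genes did. Microglia made up more of the nuclei of the fixed libraries but less of their UMIs, to which these values are scaled. In the unfixed libraries microglia held 435824 of 51528633 (post-mortem) and 429207 of 52116564 UMIs (anaesthetised). In the fixed ones they held 467328 of 64341891 and 345499 of 59962448. C1q went the other way from microglia in oligodendrocytes, astrocytes and neurons. Nuclei assigned to no class went the same way as microglia, at 79.6, 97.8, 118 and 216 CPM, with fixation ratios of 0.29 (-0.18 to 0.79) and 0.87 (0.52 to 1.23), and 1 nucleus held 65 of the 161 UMIs of the last value.

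In oligodendrocytes, astrocytes and neurons, C1q was lower in both fixed libraries. In oligodendrocytes, the myelin-forming cells, the sum was 56.4, 9.88, 50.5 and 9.95 CPM, with ratios of -2.49 (-3.21 to -1.87) and -2.30 (-3.24 to -1.55). Astrocytes had 25.7, 4.34, 34.3 and 4.32 CPM, from 16, 3, 21 and 2 UMIs. Neurons had 12.7, 4.77, 12 and 4.86 CPM, with ratios of -1.41 (-1.62 to -1.20) and -1.31 (-1.52 to -1.10). In these 3 classes the unfixed libraries were both high and the fixed both low, the reverse of microglia. Oligodendrocyte precursors had 38.9, 8.43, 25.5 and 32.9 CPM, and 12 of the 14 UMIs of the last value lay in 3 nuclei that also held 3 or more microglial markers.

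In precursors with 0 or 1 microglial marker the anaesthetised pair gave 15 CPM unfixed and 5.13 CPM fixed, from 6 and 2 UMIs, so the higher fixed value there rests on those 3 nuclei.

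The size of the ratios in oligodendrocytes and neurons depended on mixed nuclei. With the nuclei that a doublet caller marks put back, the ratios were -0.84 and -0.81 in oligodendrocytes and -0.71 and -0.47 in neurons. Without nuclei that held 3 or more microglial markers they were -1.73 and -1.84 in neurons. Such nuclei numbered 105, 92, 91 and 75 of the neurons and held 2.85%, 23%, 15% and 42.3% of the neuronal C1q UMIs, up to 17 in 1 nucleus. The C1q UMIs of unfixed neurons split into C1qa, C1qb and C1qc at 30.7%, 39.8% and 29.5% post-mortem and 32.8%, 34.4% and 32.8% under anaesthesia. The C1qb share of post-mortem neurons (35.8 to 43.8%) lay above that of the same library's microglia (26.9 to 33.9%), and in the anaesthetised unfixed library the 2 intervals overlapped. Where these UMIs came from was not tested.

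The classes that held C1q UMIs also differed between treatments. Microglia held 44.9% (42.4 to 47.4) and 43.1% (40.6 to 45.7) of all C1q UMIs in the unfixed libraries, and 84% (82.7 to 85.2) and 78.7% (77 to 80.2) in the fixed ones. Neurons held 39% and 38.3% unfixed and 8.54% and 10.4% fixed. Perivascular macrophages, 15, 16, 15 and 8 nuclei, had the sum at 1768, 6729, 2065 and 8820 CPM, from 30, 130, 26 and 94 UMIs. Their 2 fixed values lay above the unfixed ones, as in microglia, with intervals of 5622 to 7991 and 7128 to 10794 against 1193 to 2524 and 1349 to 3026.

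**Figure D3:**
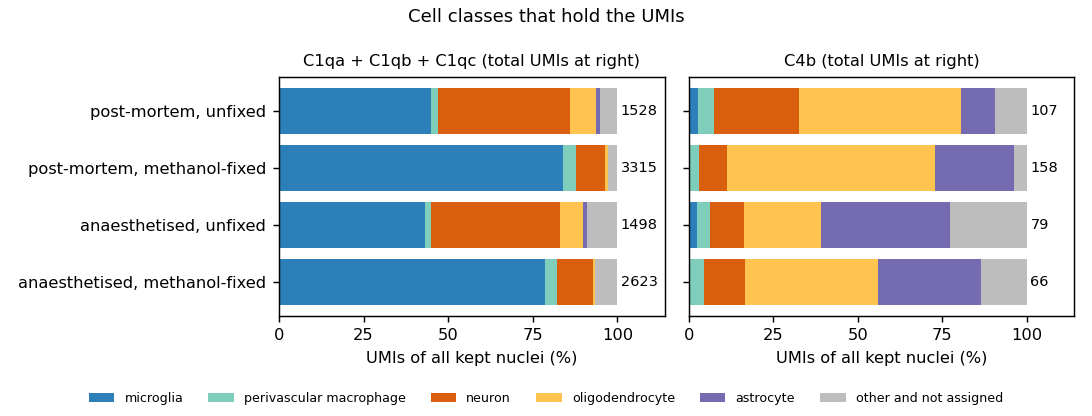
Share of the UMIs of C1qa, C1qb and C1qc together (left) and of C4b (right) held by each cell class (horizontal axis, % of UMIs in all kept nuclei), 1 bar for each library with its total at the right. Microglia hold 84% and 78.7% of C1q UMIs in the fixed libraries and 44.9% and 43.1% in the unfixed ones, while C4b lies mostly in oligodendrocytes and astrocytes.

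Markers of neurons and of the oligodendrocyte lineage in the microglial nuclei were lower in the fixed libraries. All 12 neuronal markers together took 0.164% and 0.247% of microglial UMIs unfixed and 0.0546% and 0.0353% fixed, and the 12 oligodendrocyte markers 0.0987% and 0.0629% against 0.031% and 0.0159%. Precursor markers stood at 241, 103, 401 and 72.4 CPM. Astrocyte markers did not follow, at 411, 449, 571 and 475 CPM, nor did endothelial ones, at 110, 116, 128 and 136 CPM, or those of perivascular macrophages, at 165, 175, 240 and 197 CPM. Fixed microglia also held more different microglial markers, with medians of 8 and 9 against 7 and 6. The part of these differences in the C1q ratio was not tested. With C1q and neuronal marker UMIs taken out of the total, the ratios of the sum were 1.92 and 1.99. Those UMIs were too few to move a ratio, with neuronal markers at most 0.247% and the C1q sum at most 5971 CPM. The unchanged values thus say nothing of other neuronal RNA in these nuclei. Per UMI of Inpp5d, Apbb1ip and Dock8, 3 long microglial genes, the ratios were 1.94 and 1.77.

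The C1q genes are short. They span 2887 (C1qa), 6059 (C1qb) and 3262 bp (C1qc). Of the 822 tested genes under 10 kb, 7.66% were at least 2-fold higher after methanol in both pairs, and 6.69% at least 2-fold lower, with medians of 0.21 and 0.31. Of the 1433 genes of 100 kb or more, 0.0698% were higher and 18.2% lower, with medians of -0.19 and -0.25. The ratios of the C1q genes exceeded the medians of every length class. Intron content varied among the 3 genes, at 64%, 82% and 40.8% of the span, while the intervals of their ratios overlapped.

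The homeostatic genes of microglia, a list of 16 that mark the resting state, all stood higher in both fixed libraries, and 9 were at least 2-fold higher, with medians of 1.15 and 1.30. Cst3, a protease inhibitor gene of 3.97 kb, had 1714, 7511, 1659 and 8298 CPM, with ratios of 2.13 and 2.32, above those of the C1q genes. Tyrobp, the adaptor of Trem2, had 177, 443, 137 and 463 CPM (1.32 and 1.74), and Trem2, a lipid receptor, 314, 715, 270 and 680 CPM. The longest of the list, Cx3cr1, the fractalkine receptor gene of 168 kb (named for its length after its values were seen), had ratios of 0.30 and 0.63. Harvest ratios of the list had medians of -0.21 and 0.06. Since 9 of the 16 reached 2-fold, the C1q genes were not alone in their direction, and whether they differ from the list was not tested.

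**Figure D4:**
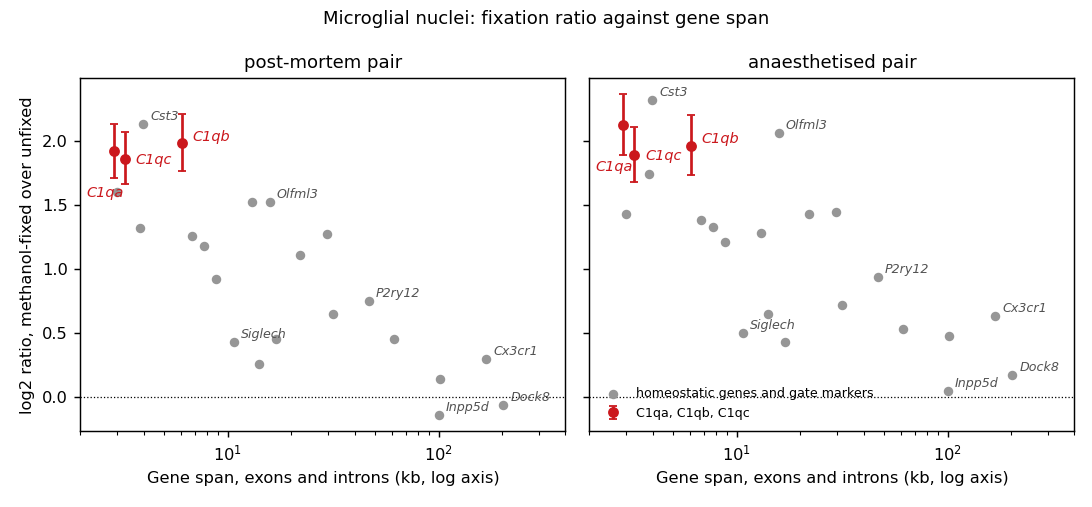
Fixation ratio in microglial nuclei (vertical axis, log2 of methanol-fixed over unfixed) against gene span with exons and introns (horizontal axis, kb, log scale), in the post-mortem pair (left) and the anaesthetised pair (right). Red points with 95% counting intervals are C1qa, C1qb and C1qc, at 1.86 to 2.12, and grey points are the homeostatic genes and the gate markers, from -0.14 for Inpp5d to 2.32 for Cst3.

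Across 20 points, the sums of 5 classes (microglia, astrocytes, oligodendrocytes, their precursors and neurons) in 4 libraries, the C1q genes varied together, at Pearson r of 0.972 to 0.989 of log2(CPM + 1). The 8 genes most like their sum, of 2130 with at least 100 CPM in microglia and leaving out the markers of the classes, were Fcer1g (r 0.982), Tyrobp (0.977), Fyb (0.972), Itgam, Fermt3 and Selplg (0.971 each), Cd33 (0.970) and Anxa3 (0.969). The points share libraries and depth, and the contrast of microglia with the other classes sets most of r. Within microglia their fixation ratios ran from 0.04 and 0.12 for Fermt3, which encodes kindlin-3 of leukocyte integrins, to 1.32 and 1.74 for Tyrobp. Fcer1g, an Fc receptor chain, had 0.86 and 1.23, Cd33 0.55 and 1.17, Selplg 0.26 and 0.65, Anxa3 0.22 and 0.63, and Fyb 0.22 and 0.37.

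C3, the central protein of the cascade, was barely seen. It had 3, 7, 4 and 5 UMIs in all kept nuclei, of which 2, 6, 3 and 5 lay in neurons and the rest in 1 perivascular macrophage and in unassigned nuclei. In microglia the count of 0 allows up to 6.88, 6.42, 6.99 and 8.68 CPM (3 UMIs), against 459 CPM or more for each C1q gene. Astrocytes and oligodendrocytes held 0 UMIs of C3 in each library as well. No library stands out and no fold is given at these counts.

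C4b, one of the mouse genes for complement C4, was an oligodendrocyte and astrocyte transcript here. Over all kept nuclei it had 107, 158, 79 and 66 UMIs, or 2.08, 2.46, 1.52 and 1.10 CPM. Oligodendrocytes held 47.7%, 61.4%, 22.8% and 39.4% of them, astrocytes 10.3%, 23.4%, 38% and 30.3%, and neurons 25.2%, 8.23%, 10.1% and 12.1%. Perivascular macrophages had the highest level, 295, 259, 238 and 282 CPM, from 5, 5, 3 and 3 UMIs in few nuclei. Microglia, at 3, 0, 2 and 0 UMIs, lay at or under the limit that 3 UMIs set (6.42 to 8.68 CPM).

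In oligodendrocytes C4b had 23.8, 39.9, 9.19 and 17.2 CPM, from 51, 97, 18 and 26 UMIs. Both post-mortem libraries were higher than their anaesthetised partners, with harvest ratios of -1.35 (-2.24 to -0.57) unfixed and -1.19 (-1.90 to -0.58) fixed. The fixed library was the higher one in each pair, at 0.74 (0.24 to 1.27) and 0.90 (-0.01 to 1.86), and the second interval includes no difference. At most 6 UMIs came from 1 nucleus. Harvest ratios of C1q in the same nuclei were -0.16 (-0.56 to 0.24) and 0.03 (-1.03 to 1.00), and the difference between the genes was not tested.

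In astrocytes C4b had 17.7, 53.5, 49 and 43.2 CPM, from 11, 37, 30 and 20 UMIs. Here the post-mortem unfixed library was low and the other 3 were level. Fixation ratios were 1.55 (0.60 to 2.72) for post-mortem and -0.17 (-1.08 to 0.68) for anaesthetised harvest. Harvest ratios were 1.43 (0.43 to 2.61) unfixed and -0.29 (-1.17 to 0.51) fixed. The pattern of oligodendrocytes was therefore not seen in astrocytes, and the difference between the classes was not tested.

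**Figure D5:**
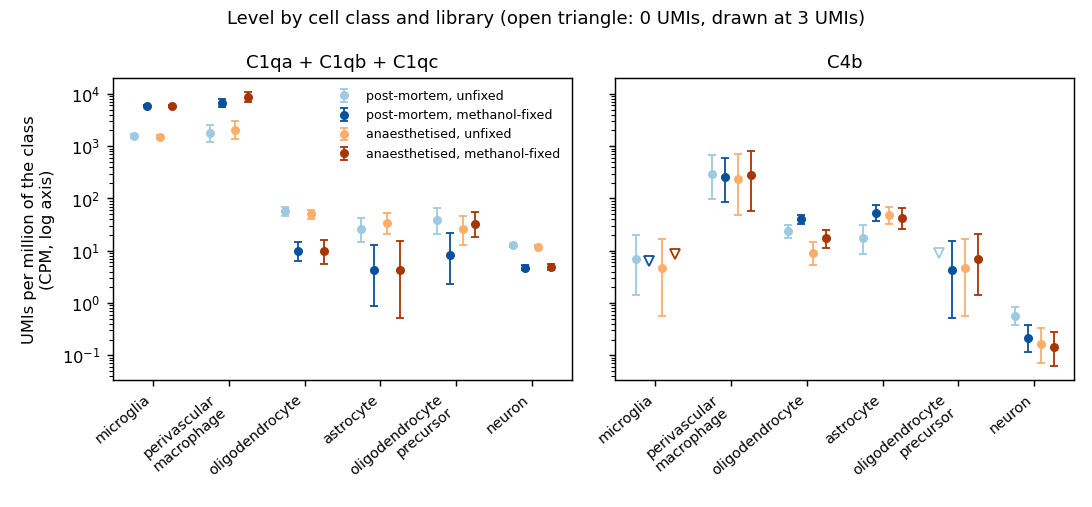
Level of C1qa, C1qb and C1qc together (left) and of C4b (right) in 6 cell classes (vertical axis, CPM of the class, log scale), 1 point for each library with exact 95% Poisson intervals; open triangles are libraries with 0 UMIs, drawn at 3 UMIs. C1q is high in microglia and perivascular macrophages and C4b in perivascular macrophages, oligodendrocytes and astrocytes.

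C4b has a near copy, C4a (ENSMUSG00000015451), at 34809092 to 34823464 on chromosome 17, 65209 bp away on the same strand. Their longest annotated transcripts align over 5378 bases at 96% identity and share an identical run of 433 bases. Over the last 500 bases of C4b, near the end that the assay reads, the identity is 98%. C4a was counted at 76, 92, 88 and 91 UMIs in all kept nuclei, of which 73, 92, 84 and 88 lay in neurons, while oligodendrocytes held 0, 0, 4 and 0. How the counting split reads between the copies is not given, so the C4b values are uncertain to that extent, above all in neurons, where both genes were counted.

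Upstream and downstream of the members, little of the pathway was seen in microglia. None of the 14 classical and lectin components, the 3 alternative pathway components and the 7 terminal components reached 10 CPM and 50 UMIs there. The protease genes C1ra and C1s1, the partners of C1q (named for that role after their values were seen), had 3 and 0 UMIs in the microglia of the 4 libraries together. C2, the partner of C4, had 4.59, 2.14, 4.66 and 8.68 CPM, from at most 3 UMIs. Cfp, the gene of properdin, had 6.88, 2.14, 11.6 and 11.6 CPM, and Hc, that of C5, had 0 in each library. Microglia thus held C1q messages with almost none of the other soluble components in the same nuclei, at this depth.

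Receptors were better represented, with 7 of 12 measured. Of these 7, 1 was at least 2-fold higher after methanol in both pairs, as were 1.85% of all genes tested. It was Itgb2, the beta chain of complement receptor 3, at 73.4, 160, 51.3 and 133 CPM, from 32, 75, 22 and 46 UMIs. The Itgb2 ratios were 1.12 (0.51 to 1.77) and 1.36 (0.61 to 2.18), and both intervals reach below 2-fold. Its partner Itgam, the alpha chain, had 521, 529, 419 and 712 CPM (0.02 and 0.76). Lrp1 and Calr, which bind C1q, had 582 to 695 and 107 to 142 CPM, with fixation ratios of -0.26 and 0.17 for Lrp1 and -0.10 and 0.15 for Calr. C3ar1 and C5ar1, the receptors of the C3 and C5 fragments (named after their values were seen), had 44.3 to 94.2 and 21 to 63.7 CPM, and in neurons under 1 CPM over the 4 libraries together. The list medians were 0.42 and 0.53.

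Regulators, the proteins that restrain the cascade, had 7 of 18 measured. Csmd3, a membrane protein with complement control domains, had 4091 to 6194 CPM. Clu, the clusterin gene abundant in astrocytes, was at least 2-fold lower after methanol, at 112, 40.7, 149 and 31.8 CPM (-1.44 and -2.17), as was Sez6l2, at 59.7, 17.1, 32.6 and 14.5 CPM. Csmd1, high in neurons, had 427, 223, 939 and 92.6 CPM (-0.94 and -3.32). The medians were -0.94 and -0.15, and the lower members went the same way as the neuronal and oligodendrocyte markers given above; their part was not tested.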

How the data were processed

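The authors deposited counts, that is, UMIs of each gene in each barcode as whole numbers, made with a 3' droplet kit (SeekOne DD), on genome build mm10 per the submitters' processing notes. Aligner, annotation release and strand setting are not given in the sources used here. The 4 libraries held 64312917 to 82408017 UMIs. A barcode needed at least 500 UMIs, at least 300 genes, at most 5% mitochondrial UMIs and at most 100000 UMIs (the last removed 8 barcodes of the post-mortem fixed library, a limit set after totals were seen). Scrublet in scanpy 1.11.5, at an assumed 6%, marked 8.95% to 15.2% as doublets, which were removed.

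The rule of the marker gate was set after marker counts were seen. UMIs were summed per class and library and scaled to the class total (CPM). A ratio adds 0.5 counts and carries an exact conditional 95% interval; shares carry Clopper-Pearson intervals. Genes were tested against 2-fold at a mean of 10 CPM and 50 UMIs in all. Some genes of the lists are not reported here by name. Genes are named as members, as the up to 3 highest of each list in microglia or those 2-fold apart in both pairs, or as the 8 most alike. The members and lists were chosen with earlier results of these data known. The ratio and its call were tested on simulated data. Positions come from GENCODE M21, promoters from RefSeq, and the C4a alignment from blastn 2.17.0. Alternatives are under the closing section. With 1 library per group no p-value is given.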

Additional observations from a re-analysis of the deposited data

How the results depend on the processing

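The C1q fixation ratios in microglia, of the sum and of each gene, stayed between 1.33 and 2.23 over 80 alternatives, and the harvest ratios between -0.36 and 0.53. In the anaesthetised pair the sum was 1.55 in nuclei of at least 1000 UMIs, 1.58 when thinned to 1000 UMIs and 1.77 per UMI of Inpp5d, Apbb1ip and Dock8. Harvest in the unfixed pair was 0.40 and 0.36 under the first 2 of these, and in the methanol pair -0.17 under the third. The first 2 include the 1 anaesthetised unfixed nucleus with 22 C1q UMIs. The cause was not tested. In all kept nuclei of at least 1000 UMIs, harvest in the methanol pair turned to 0.03 (C1qa), 0.11 (C1qb), 0.21 (C1qc) and 0.11 (sum). Thinning to 500 UMIs gave shares of microglia with a C1q UMI of 53.7%, 89.8%, 48.3% and 90.3%.

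Of genes in microglia, fixation set 117 higher and 462 lower at 2-fold, 481 and 759 at 1.5-fold, and 71 and 242 at 50 CPM. Harvest set 5 higher and 18 lower, 68 and 134 at 1.5-fold, and 0 and 10 at 50 CPM. In all kept nuclei fixation set 27 higher, 323 at 1.5-fold and 3 at 50 CPM. The scaling to the 3 long genes, the total without C1q, the barcodes over 100000 UMIs and the settings for C4b and for C1q outside microglia were added after the data were seen. No paired analysis was possible because each group holds 1 library. C3 and C4b in microglia are limited by depth.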

Other observations

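Genes linked to activation or dissociation of microglia were a list of 18, of which 5 were measured in microglia. Cd68, a lysosomal protein of phagocytes, had 110, 310, 62.9 and 315 CPM (post-mortem unfixed, post-mortem fixed, anaesthetised unfixed, anaesthetised fixed), with fixation ratios of 1.48 and 2.31. Cd74, the invariant chain of antigen presentation, had 45.9, 338, 11.6 and 57.9 CPM, from 20, 158, 5 and 20 UMIs. It was the member furthest from C1q in its harvest ratios, at -1.88 (-3.75 to -0.52) and -2.52 (-3.30 to -1.87). Nfkbia, an inhibitor of NF-kB, had 27.5, 81.3, 9.32 and 37.6 CPM, from 12, 38, 4 and 13 UMIs. Its harvest ratios were -1.45 (-3.65 to 0.16) unfixed, an interval that includes no difference, and -1.08 (-2.14 to -0.17) fixed. Markers of blood leukocytes summed to 25.2, 96.3, 44.3 and 23.2 CPM in the same nuclei, highest where Cd74 was highest; their part was not tested.

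Of 10 C1q-domain and C1q-like genes of neurons, 1 had enough UMIs in microglia to be measured. This gene, C1qtnf4, had 21 and 2 UMIs in post-mortem microglia (unfixed and fixed) and 33 and 0 in anaesthetised microglia. It was low in the fixed libraries, where C1qa, C1qb and C1qc were high. The other members had at most 18 UMIs in a library.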
